A study of Homo sapiens with 4 samples.

Results

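Control-only sites are regions of m6A enrichment that were listed in CaSki cells at 37 °C and shared no base with any region listed in heated cells, although their gene still carried at least 1 listed region after heat. They were chosen by overlap and by gene name: 2775 regions in 2083 genes met both conditions, out of 29839 listed regions in all (14367 control and 15472 heat). CaSki is an established cell line from a squamous carcinoma of the cervix. The series had 4 libraries in 2 conditions. The control cells were cultured in 1640 medium with fetal bovine serum at 37 °C under CO2, and the heated cells had the same culture followed by 60 min at 42 °C. From each condition, total RNA isolated with RNAiso Plus gave 1 library immunoprecipitated with an m6A antibody kit and 1 input library made without the antibody. Each condition therefore had 1 list of regions (peaks) with no replicate, so nothing below has a test across cultures, and no p-value is given for any difference between conditions. The 95% Wilson intervals given with shares reflect counting error alone.

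N6-methyladenosine (m6A) is placed on mRNA by a nuclear complex around METTL3 and METTL14, is removed by FTO and ALKBH5, and is bound by reader proteins of the YTH and IGF2BP families that affect splicing, translation and decay. In mammalian mRNA it is concentrated in long internal exons and around stop codons and the start of the 3′ untranslated region. Heat shock is known from mouse embryonic fibroblasts to add m6A near the 5′ end of induced transcripts, so the place of a site within its gene is given below beside its presence.

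Each listed peak carries a significance score, which the file headers give as 10 times the negative log10 of the caller's p-value. The lowest listed score was 50, and many peaks share a score of exactly 3100, which looks like a ceiling although a few scores lie above it, so the order of peaks at 3100 is uncertain. Each peak also carries a fold enrichment, the ratio of immunoprecipitated signal to background, and a false discovery rate (FDR) from the caller in percent. All were computed by the authors peak by peak. The scaling between the lists is not given, so they describe peaks within a list and are not read as a change. A peak that is missing from a list may have fallen short of the calling threshold, or may be 1 of the peak numbers that the list skips. Among the 2768 control-only sites with a listed heat peak on both sides, the flanking heat peaks left a median of 4 skipped numbers, and for 127 sites they left none.

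Of the 13072 control peaks in the 6030 genes listed in both conditions, 2775 were control-only (21.2%, 20.5 to 21.9%). The mirror share, heat peaks of the same genes that no control peak overlapped, was 26.5% (25.7 to 27.2%, 3709 of 14013). Over all control peaks, whatever their gene, the share without overlap was 28.3%. Genes with at least 1 control-only site made up 34.5% of the genes listed in both (33.4 to 35.8%). Of these 2083 genes, 1553 had 1 such site, 413 had 2, 81 had 3, 29 had 4, 5 had 5 and 2 had 6. At least 4 control-only sites were found in 36 genes, whereas at least 4 heat-only sites were found in 158.

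Marker genes were looked up beside the labelled cell type. Of 18 epithelial markers 8 had a control peak and 14 a heat peak, and 2 carried a control-only site. An m6A peak is not a measure of RNA level, so the marker counts do not test the cell type. Of 11 fibroblast and endothelial markers 2 had a control and 1 a heat peak, and none of the 9 immune markers had a peak in either list. RNA levels were not analysed here, so a region missing after heat cannot be told apart from less RNA of that gene, exon or isoform.

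Most of these genes kept an m6A region in place. A total of 1796 genes, with 2434 of the sites, had another control peak that overlapped a heat peak. The other 287 genes (4.76% of those listed in both, 4.25 to 5.33%), with 341 sites, kept no peak in place, so that every peak listed in heat lay elsewhere. In 196 of those 287 genes there was exactly 1 control peak and 1 heat peak. Of the 2083 genes, 1008 also had a heat-only site (48.4%, 46.3 to 50.5%), and 1075 had none. Among genes listed in both with no control-only site the share was 30.0% (28.6 to 31.4%, 1183 of 3947). The 48.4% leans by construction, since a gene that kept no peak in place has only heat peaks that lie elsewhere. All 243 genes whose single control peak was control-only had a heat-only site. The heat list held fewer peaks than the control list for 1234 of the 2083 genes, equally many for 539 and more for 310, a split that leans by construction, since the genes were chosen for a peak missing from the heat list. With the number of control peaks held at 2, a heat-only site was listed in 31.6% of genes with a control-only site (28.3 to 35.0%) and in 30.1% of genes without one (27.1 to 33.3%). With 3 control peaks the shares were 34.6% (30.4 to 39.0%) and 46.5% (41.0 to 52.2%). With 4 they were 49.6% (43.8 to 55.5%) and 42.0% (32.8 to 51.8%). No single direction thus held across these gene sizes. The intervals overlapped with 2 and with 4 control peaks but not with 3, where genes with a control-only site had the lower share.

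The sites were short and weakly scored within their list. Their median length was 228 bases (quartiles 134 and 525.5), against 644 bases (225 and 1299) for the shared control peaks of the same set of genes. Their median score was 103 (68.1 and 187), against 443 (156 and 1510). Their median fold enrichment was 32.9 (24.6 and 45.7), against 50.1 (29.7 and 95.3). Because overlap depends on height and length, these values describe what the choice by overlap picked and support nothing further. The listed FDR was 100% for 82.0% of the sites (2275) and for 36.1% of the shared peaks. The heat-only sites of the same genes had a median length of 184 bases, and 79.6% of them had an FDR of 100%.

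Control peaks of genes that were absent from the heat list altogether were long, with a median of 656 bases, at a score close to that of the control-only sites, 117. The control-only sites in genes listed in both were under 250 bases in 53.3% of cases (51.5 to 55.2%), against 15.9% (14.0 to 18.0%) of the peaks in control-only genes. By score, the control-only share ran from 51.0% (48.3 to 53.7%) in the lowest decile to 0.688% (0.362 to 1.30%, 9 of 1308 peaks) in the highest. Within the genes that kept a shared peak, the site was the lowest-scored control peak in 1302 of 2434 cases (53.5%) and the highest-scored in 237 (9.74%). A minority was nevertheless strong: 81 sites (2.92%) scored at least 1000, 11 (0.396%) stood at 3100, and 277 (9.98%) were at least 1000 bases long. All 3 were far more common among the shared control peaks. Of those, 32.4% scored at least 1000, 14.0% scored 3100 or more, and 34.0% were at least 1000 bases long.

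**Figure D1:**
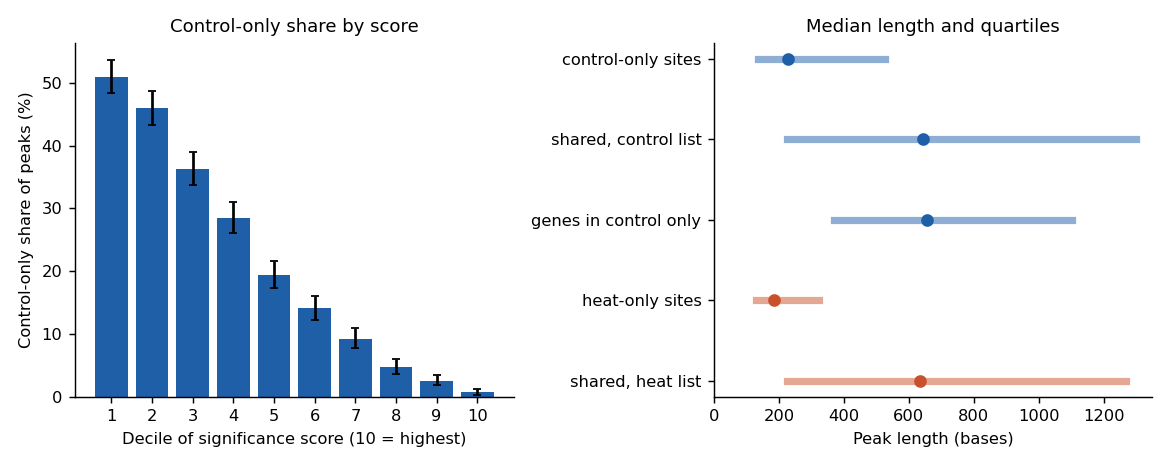
Left, the share of control peaks of genes listed in both conditions that were control-only (y axis, percent, with 95% Wilson intervals) by decile of significance score within the control list (x axis); the share runs from 51.0% in decile 1 to 0.688% in decile 10. Right, the median (point) and quartiles (bar) of peak length in bases for 5 classes of peaks; the control-only sites, at a median of 228 bases, lie below the shared control peaks, at 644 bases.

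The 11 sites at the tied top score of 3100 are taken in order of fold enrichment. The site with the highest fold among them lay in CCNJL, a cyclin J-like gene. It spanned 2024 bases at chr5:159678782-159680805 (hg19, as for all positions here) with a fold enrichment of 573, and the nearest heat peak of CCNJL lay 5670 bases away. CCNJL had 5 control peaks, 2 of them control-only, and all 3 of its heat peaks were shared. PLEKHO2, a pleckstrin homology domain gene, had the same numbers, with a site of 453-fold over 3022 bases at chr15:65157098-65160119. ZKSCAN1, a zinc finger transcription factor with KRAB and SCAN domains, had a 6158-base site of 234-fold at chr7:99630928-99637085 and a second, 127-base site of 99.7-fold. In these 3 genes a strong and long control region had no listed counterpart, while every heat peak of the gene was shared. By the strand of the gene, the strongest site of CCNJL, of PLEKHO2 and of ZKSCAN1 lay 3′ of every shared peak. Exon and untranslated region limits were not analysed here, because no annotation of the hg19 build was given.

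The other sites among the 12 with the highest scores lay in KIAA1217, CEP250, RBBP6, CDK11A, RABL6, TPM4, PHLDA1, PTRF and TUBB2A. CDK11A and TUBB2A have near-identical relatives in the genome, so the assignment of their reads is uncertain. RBBP6, a ubiquitin ligase that binds RB1, had a 1864-base control-only site of 101-fold at chr16:24582197-24584060. A heat-only peak of 1755 bases and 56.3-fold lay 376 bases on its 5′ side, with no skipped number between the flanking heat peaks. TPM4, a tropomyosin of the actin cytoskeleton, had a 263-base site of 56.8-fold at chr19:16178510-16178772, and a 286-base heat-only peak of 91.9-fold lay 393 bases on its 5′ side. In RBBP6 and TPM4 the control-only and the heat-only region were thus neighbours within 500 bases.

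PHLDA1, an immediate early gene of the pleckstrin homology family that the immediate early list below does not hold, had exactly 1 peak in each list. The control site, 1267 bases at chr12:76424290-76425556 and 37.0-fold, was followed 417 bases further 3′ by the heat-only peak, 1383 bases at chr12:76422490-76423872 and 34.3-fold. No number was skipped between the heat peaks on either side of the control site. TRADD, the adaptor of TNF receptor 1, gave a similar picture: a control site of 774 bases and 44.2-fold at chr16:67188089-67188862 and a heat-only peak of 873 bases and 28.5-fold 417 bases away, again with no skipped number. PHLDA1 and TRADD belong to the 287 genes that kept no peak in place.

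In other genes of that class the remaining peak was far away and weak. KCNK5, a background potassium channel, had a 2785-base control site of 187-fold at chr6:39156747-39159531, and its heat-only peak, scored 72.2, lay 37170 bases away. PRKAR1B, a regulatory subunit of protein kinase A, had a 1406-base site of 277-fold at chr7:588834-590239, and its nearest heat peak, scored 91.5, was 126626 bases away. PAK2, a p21-activated kinase, had a 2951-base site of 70.3-fold at chr3:196555190-196558140 and a heat-only peak 88161 bases away. For these 3 genes, being listed in both conditions rests on 1 or 2 heat-only peaks. ZC3H12A, an endonuclease that degrades inflammatory mRNAs, had a control site of 113-fold over 481 bases and a 1942-base heat-only peak scored 58.1 at 6494 bases. The class also held ZNF688, WBSCR16, TAF8 and GPR144 among its 10 highest-scored genes.

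The genes with the most control-only sites carried mainly short ones. PPP6R2, a regulatory subunit of protein phosphatase 6, had 7 control peaks, of which 6 were control-only, and 4 heat peaks, of which 3 were heat-only. The 6 sites were 116 to 243 bases long with scores of 54.4 to 780, and the strongest lay at chr22:50832322-50832564 with 175-fold enrichment. The single shared peak, 187 bases, had the same boundaries in both lists. PPL (periplakin, of the desmosomal plaque) had 10 control peaks, 6 of them control-only, and 5 heat peaks, 1 of them heat-only. Its 6 sites were 93 to 194 bases long and scored 54.8 to 310, beside a shared 3541-base peak scored 3100 in both lists. ADCY3, an adenylate cyclase, had 5 control-only sites of 117 to 260 bases among 7 control peaks, and both of its heat peaks were shared. CTDP1, a phosphatase of the RNA polymerase II tail, had 5 among 8, and all 3 of its heat peaks were shared.

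The pattern was not the same in all of the genes with the most sites. PTPRS, a receptor tyrosine phosphatase, had 5 control-only sites among 10 control peaks and 4 heat-only sites among 9 heat peaks. PPFIA1, the scaffold liprin alpha 1, had 5 among 6, with 2 heat-only peaks on the 5′ side of every control peak. ARHGAP23, a GTPase-activating protein, had 13 peaks in each list, 4 of them single-condition on both sides. ARHGEF16, SSH1 and STX6 had 4 sites each, as did IGF2BP2, described with the m6A factors. All of the genes named here had fewer peaks in the heat list than in the control list, except ARHGAP23 with 13 in each. That leans by construction, since these genes were chosen for the most control peaks missing from the heat list.

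**Figure D2:**
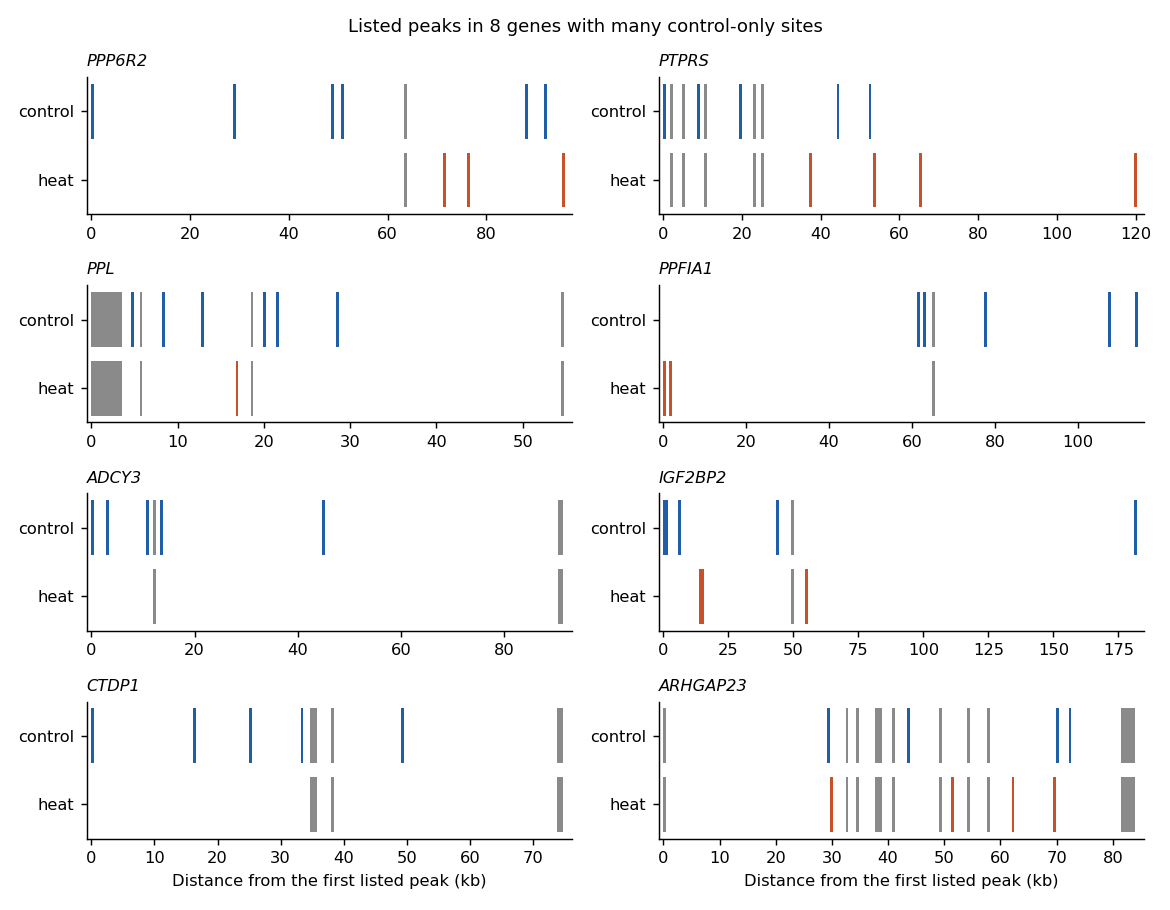
Listed peaks of 8 of the genes with the most control-only sites, drawn by distance in kb from the first listed peak of the gene (x axis), with the control list above the heat list; blue marks control-only, orange heat-only and grey shared peaks, and narrow peaks are drawn at a minimum width. ADCY3 and CTDP1 show blue peaks and no orange ones, whereas PTPRS has 5 blue and 4 orange peaks.

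Within genes, the control-only sites lay more often towards the 5′ side. The strand of the gene was known for 2275 sites (82.0%), and genes with all peaks on 1 chromosome were ordered along it. In the 1286 genes with 2 control peaks and a known strand, the 5′-most peak was control-only in 448 (34.8%, 32.3 to 37.5%) and the 3′-most peak in 199 (15.5%, 13.6 to 17.6%), a difference of 19.4 percentage points. In genes with 3 control peaks the shares in 5′ to 3′ order were 33.4%, 28.3% and 19.9%. With 4 they were 34.2%, 26.2%, 29.4% and 21.7%, and with 5 the order was no longer regular (28.8%, 20.7%, 19.6%, 26.6% and 21.2%). Of the 1999 sites with a known strand in genes that kept a shared peak, 988 lay 5′ of every shared peak (49.4%), 514 lay 3′ of every one (25.7%) and 497 lay between them (24.9%).

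The heat list gave the same kind of order. In genes with 2 heat peaks, the 5′-most was heat-only in 33.2% and the 3′-most in 14.8%, and 49.9% of heat-only sites lay 5′ of every shared peak. The order was thus seen in both lists. It went together with peak height and length: in genes with 2 control peaks, the 5′-most peaks had a median score of 169 and a median length of 389 bases, against 546 and 984 bases for the 3′-most. In the 327 pairs whose scores differed by less than 2-fold, the difference was 4.59 points, with 26.0% (21.5 to 31.0%) of 5′-most and 21.4% (17.3 to 26.2%) of 3′-most peaks control-only, and these intervals overlap. In the 389 pairs whose 5′-most peak had the higher score, the order turned, to 15.4% of 5′-most and 35.0% of 3′-most peaks.

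The order was also set out by length, in genes with several control peaks. Among peaks of at least 1000 bases, 10.7% (7.88 to 14.4%) of the 5′-most and 9.88% (8.38 to 11.6%) of the 3′-most were control-only. Among peaks from 250 to under 1000 bases the shares were 30.8% (28.2 to 33.4%) and 20.5% (18.2 to 23.1%), and under 250 bases they were 42.9% (40.0 to 45.9%) and 38.9% (33.7 to 44.4%). The intervals thus overlapped for the longest and the shortest peaks but not for those of middle length. In the heat list the middle class gave 30.7% (28.2 to 33.3%) of 5′-most and 16.9% (14.7 to 19.3%) of 3′-most peaks heat-only, whereas among heat peaks of at least 1000 bases the 5′-most had the lower share, 4.56% (2.68 to 7.65%) against 7.91% (6.54 to 9.53%), with overlapping intervals.

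**Figure D3:**
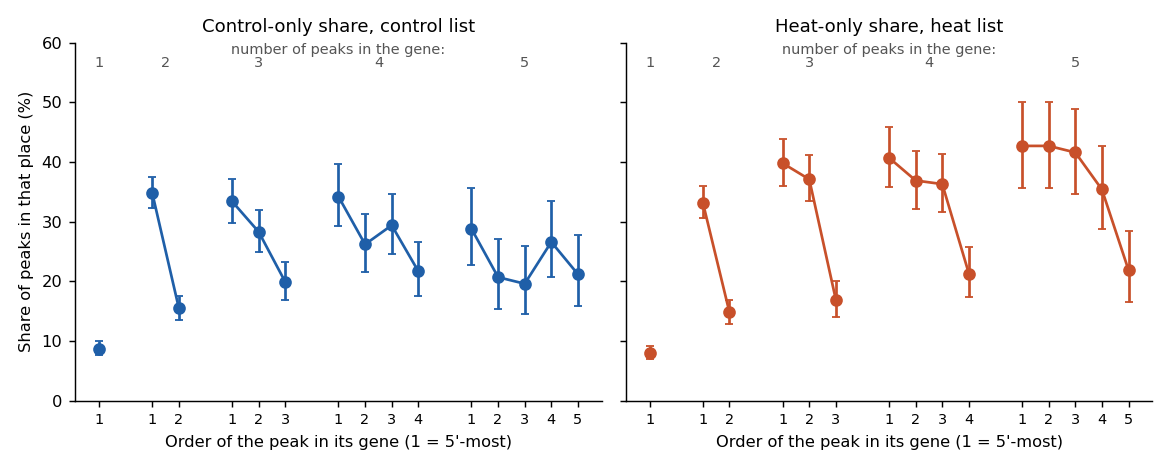
Share of peaks (y axis, percent, with 95% Wilson intervals) that were control-only in the control list (left) and heat-only in the heat list (right), by order of the peak in its gene from the 5′ end (x axis), for genes with 1 to 5 peaks. In genes with 2 control peaks the share is 34.8% for the 5′-most and 15.5% for the 3′-most peak, and in genes with 2 heat peaks 33.2% and 14.8%.

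The share also depended on how many peaks a gene had. It was 8.64% (243 of 2813) in genes with 1 control peak, 24.5% with 2, 27.7% with 3 and 28.2% with 4, and 16.2% in genes with at least 10. Genes with at least 1 control-only site made up 46.8% of those with 2 control peaks and 87.8% of those with at least 10 (36 of 41). By chromosome, the lowest share was 17.4% on X (13.8 to 21.6%) and the highest 27.0% on chromosome 18 (20.8 to 34.3%, 44 of 163 peaks).

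The remaining heat peaks of the gene were mostly not adjacent. The median genomic distance, introns included, from a site to the nearest heat peak of its gene was 5582 bases (quartiles 2070 and 15659) for the 2773 sites with a heat peak of the gene on the same chromosome. The distance was at most 500 bases for 80 sites (2.88%), at most 1000 for 278 (10.0%) and at most 10000 for 65.2%. The nearest heat peak was itself heat-only for 28.2% of the sites (782), and it lay on the 3′ side for 59.2% of those with a known strand. Over all heat peaks of genes listed in both, 26.5% were heat-only. The 28.2% includes the 341 sites of genes that kept no peak in place, for which a heat-only neighbour largely follows from the rule. For the heat-only sites of the same genes the median distance to a control peak was 7042 bases.

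Sites close to a heat peak were longer. The 80 sites within 500 bases had a median length of 634 bases and a median score of 137, and for 43 of them (53.8%, 42.9 to 64.3%) the neighbour was a heat-only peak. The nearest neighbour of all was in LHX6, a LIM homeobox gene, where a 1551-base control site of 69.6-fold lay 21 bases from a 603-base heat-only peak scored 54.8. In KLHL18, an adaptor of the Cul3 ubiquitin ligase, the gap was 23 bases, and in C5orf24 it was 33 bases. On the other side of the rule, the control peak of HSP90B1, the endoplasmic reticulum Hsp90, overlapped a heat peak by 5 bases and so counted as shared, and peaks of TAF2, a TFIID subunit, and ANKRD63 did so by 13 bases each. At the far end, the nearest heat peak of CAMK1D, a calcium/calmodulin-dependent kinase, was 478858 bases from its site, that of EXOC4, an exocyst subunit, 789825 bases, and in NBPF8, a multicopy gene whose reads are hard to place, the distance reached 3180457 bases.

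**Figure D4:**
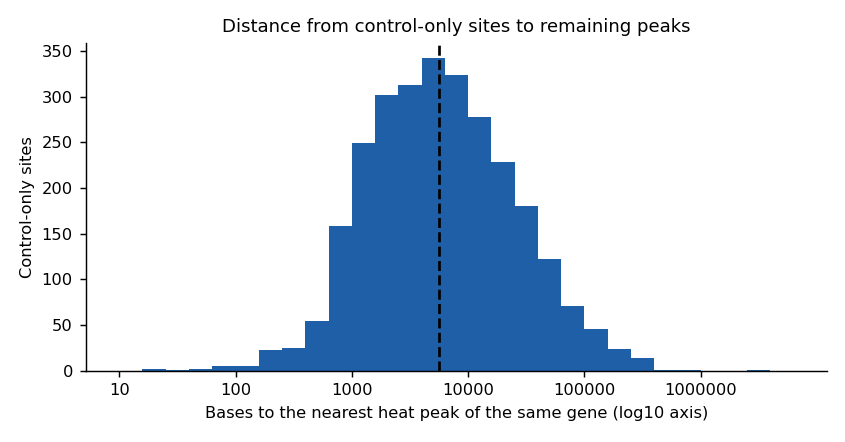
Number of control-only sites (y axis) by distance in bases from the site to the nearest heat peak of the same gene (x axis, log10), for 2773 sites; the dashed line marks the median of 5582 bases. Only 80 sites lie within 500 bases.

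The transcript to which a site was assigned gives a second, coarser view. For 561 sites (20.2%, 18.8 to 21.8%) the assigned transcript did not occur in the heat list, although the gene did. This was so for 0.534% of the shared control peaks, whose overlap with a heat peak largely fixes the transcript. The figure for heat-only sites was 19.9% (18.6 to 21.2%). Among control-only sites it was 19.2% in genes that kept a shared peak and 27.3% (22.8 to 32.2%) in genes that kept none. How the authors chose 1 transcript per peak is not given, so these shares count labels of peaks, not isoforms of RNA.

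Gene lists were described by their counts beside the share over all genes listed in both, 21.2% of control peaks and 34.5% of genes. Among the 16 m6A factors listed in both, 8 had a control-only site, and 13 of their 53 control peaks were control-only (24.5%, 14.9 to 37.6%). IGF2BP2, a reader that stabilises its target mRNAs, had 5 control peaks and 4 heat peaks, of which only 1 was shared. Its strongest control-only site covered 1885 bases at chr3:185361527-185363411 with a score of 1934 and 44.2-fold enrichment, and its 3 heat-only peaks were 49 to 117 bases long. YTHDF2, a reader that promotes decay, had a shared 1584-base peak scored 3100 in both lists. Its control-only site, 720 bases at chr1:29095441-29096160 and 98.0-fold, lay 24942 bases downstream, with no skipped number between the flanking heat peaks.

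Writers were also among them, and of the erasers only FTO. KIAA1429 (VIRMA), a scaffold of the methyltransferase complex, had 2 control-only sites and 3 shared peaks, with scores of 119 and 195 for the sites. FTO, the demethylase, had 2 control-only sites of 78 and 144 bases, scored 57.8 and 100.1, among 3 control peaks, and its single heat peak was shared. PCIF1, which methylates the adenosine next to the cap, had 1 control site of 27.8-fold at chr20:44563317-44563443 and 1 heat-only peak of 12-fold, 4176 bases away. YTHDC1, YTHDF1 and EIF3A, a subunit of a translation initiation factor, had 1 site each, with scores of 88.7, 85.3 and 86.9. FTO, YTHDC1, YTHDF1 and EIF3A lie outside the naming rule and were named after their values were seen, to complete the 8. RBM15 and ZC3H13, subunits of the methyltransferase complex, had 1 and 8 control peaks, all of them shared.

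The heat shock list had few control-only sites: 4 of its 18 genes listed in both, and 5 of 34 control peaks (14.7%, 6.45 to 30.1%). STIP1, which links Hsp70 to Hsp90, had 2, at chr11:63952744-63953395 and chr11:63961661-63961802, and the second lay 1314 bases from a heat-only peak. SERPINH1, the collagen chaperone, had a 656-base site at chr11:75277361-75278016 of 20.1-fold, 826 bases before a shared peak. HSPA13, an Hsp70 of the microsomes, had a 168-base site of 83.7-fold next to a shared peak, and HSPA4 had a 153-base site of 20.2-fold with a heat-only peak 910 bases away. BAG3 and HSPA2 had none. The interval for this list includes the share of all genes.

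Immediate early genes had the smallest control-only share of the 17 lists. Only 4 of 31 such genes listed in both (12.9%, 5.13 to 28.9%) and 4 of 49 control peaks (8.16%, 3.22 to 19.2%) were in the class, and their heat-only share was low as well (6.25%, 3 of 48). EGR1, a zinc finger transcription factor, had a 577-base site of 71.7-fold at chr5:137801181-137801757, 688 bases before a shared peak scored 3100. DUSP6, a phosphatase of ERK, had a 1032-base site of 94.4-fold scored 1337 at chr12:89745417-89746448, and a 584-base heat-only peak scored 142 lay 468 bases from it. DUSP5 and ZFP36L1, an RNA-binding decay factor, had a site of 29.4-fold and of 37.7-fold. JUN had 1 peak and MCL1 had 2 in each list, all shared. The 49 peaks lie in 31 genes, so some of these genes had 1 peak and others more. Over all genes the control-only share was 8.64% with 1 control peak and 24.5% with 2. All 4 sites lay in genes with 2 control peaks. Whether the low share of this list goes with the number of peaks per gene was not tested. PHLDA1, whose only control peak was control-only, is not in the list and is not counted in these shares.

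The ubiquitin and proteasome list had the highest control-only share of the 17 lists. Of its 44 genes listed in both, 27 had a site (61.4%, 46.6 to 74.3%), and 42 of 129 control peaks were control-only (32.6%, 25.1 to 41.0%). Its heat-only share was also high, 35.6% (48 of 135) against 26.5% over all genes. Of these 48 heat-only sites, 12 lay in 1 gene, HUWE1, which is outside the naming rule. RNF213, a very large ubiquitin ligase, had 4 sites among 12 control peaks, the longest of 3609 bases. RNF4, a ligase that recognises SUMO chains, had a 294-base site of 147-fold at chr4:2471180-2471473, with a heat-only peak of 139-fold 525 bases away. SMURF2, a ligase for SMAD proteins, had 2 short sites, and UBE2H, a conjugating enzyme, had 1 of 93 bases with a heat-only peak 1236 bases away. USP42 and FBXW7 had none. The median score of the 42 sites was 77.5, below the 103 of all control-only sites. The 129 control peaks lie in 44 genes, so many of these genes had several peaks. Over all genes with 3 control peaks, 27.7% of peaks were control-only and 60.4% of genes had a site. Both values lie inside the intervals of this list.

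Signalling and death receptor genes gave some strong single sites. In the apoptosis and p53 list, 6 of 22 genes and 11 of 47 control peaks (23.4%) were in the class. RIPK1, a kinase of TNF signalling, had 3 sites, and 1 of them, 2084 bases at chr6:3113287-3115370, scored 2410 with 191-fold enrichment and lay 2097 bases 3′ of the last heat peak. BIRC2, an inhibitor of apoptosis, had a 388-base site of 170-fold at chr11:102248721-102249108, and a 255-base heat-only peak of 35.7-fold lay 239 bases from it. BIRC3, its close relative, had 2 sites and no heat-only peak. In the growth factor list, 17 of 47 genes and 26 of 109 control peaks (23.9%) were in the class. IGF1R, the insulin-like growth factor 1 receptor, had a 7079-base site of 52.9-fold at chr15:99500290-99507368, while both heat-only peaks of IGF1R were under 300 bases. TSC1, a brake on mTOR, had a 2231-base site of 64.1-fold at chr9:135766886-135769116. GAB1, a docking protein, had 3 sites among 4 control peaks. AREG, an EGF receptor ligand, was listed at 2 places on chromosome 4 with peaks of the same 309 bases, as near-identical copies would give, so its site is uncertain.

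In 3 of the 17 lists, squamous epithelium, cytoskeleton and adhesion, and chromatin, the intervals of the control-only and heat-only shares did not overlap, as they did not over all genes. In the squamous epithelium list 16.7% of control peaks (10.4 to 25.7%, 15 of 90) were control-only and 39.0% of heat peaks (30.9 to 47.9%) heat-only, and 6 of the 15 sites were those of PPL. DSG2, a desmosomal cadherin, had 1 control peak, a 2331-base site of 40.8-fold at chr18:29125684-29128014, and 1 heat-only peak 47424 bases away. In the cytoskeleton and adhesion list the shares were 18.1% (37 of 204) and 37.2%. AHNAK, a giant scaffold protein, had an 18117-base control-only site of 48.0-fold at chr11:62283430-62301546, with no skipped number between the flanking heat peaks. DAAM1, a formin, had a 171-base site of 177-fold, and SPTAN1, a spectrin, had 1 of 457 bases and 65.9-fold. The zinc finger genes had the lower share on the heat side, with overlapping intervals. There 21.3% of control peaks were control-only (17.4 to 25.7%, 79 of 371) and 16.1% of heat peaks heat-only (12.6 to 20.3%). The heat-only share was also the lower one for the m6A factors (13%), apoptosis and p53 (12.2%), DNA repair (18.5%) and immediate early lists. In each of these lists the intervals of the control-only and heat-only shares overlapped too. ZNF276 had a 2949-base site scored 2308 at chr16:89804384-89807332.

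The chromatin list had 27 of 51 genes with a site but a low share of peaks, 15.5% (11.6 to 20.3%, 41 of 265), against 26.9% heat-only (22.3 to 32.2%). DOT1L, the H3K79 methyltransferase, had a 945-base site of 65.6-fold scored 2352 at chr19:2226182-2227126. No number was skipped there. KDM2A, a histone demethylase, had a 713-base site scored 1001. DNA repair genes had 22.4% of peaks in the class (19 of 85), with MCM2, a subunit of the replicative helicase, POLD3, a polymerase delta subunit, and PALB2, a BRCA2 partner, carrying sites of 79.1-fold, 58.7-fold and 124-fold. In the splicing list the share was 20.4% (19 of 93), and RBM4 and HNRNPF, both splicing regulators, had 3 sites each. PTBP1, a splicing repressor, had a 114-base control site of 128-fold and a 1634-base heat-only peak of 24.9-fold 13188 bases away.

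The remaining lists lay between these. The stress granule and translation list had 25.3% of control peaks control-only (20 of 79), with 2 sites each in LARP1, which binds mRNAs of ribosomal proteins, and in TIAL1, a stress granule protein. The cell cycle list had 15.7%, the mesenchymal transition and TGF-beta list 14.3%, the membrane transport list 13.8%, and the list of unfolded protein and integrated stress response genes 10.9%. SESN2, a stress-induced inhibitor of mTOR signalling, had 1 control peak, a 1684-base site of 105-fold at chr1:28607227-28608910, and 2 heat-only peaks 5′ of it, the nearer at 7922 bases. SMAD2, a transducer of TGF-beta signals, had a 642-base site of 75.7-fold and a heat-only peak 54570 bases away. Except for the ubiquitin list above it, and the chromatin and immediate early lists below it, the interval of each list's control-only share included 21.2%.

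**Figure D5:**
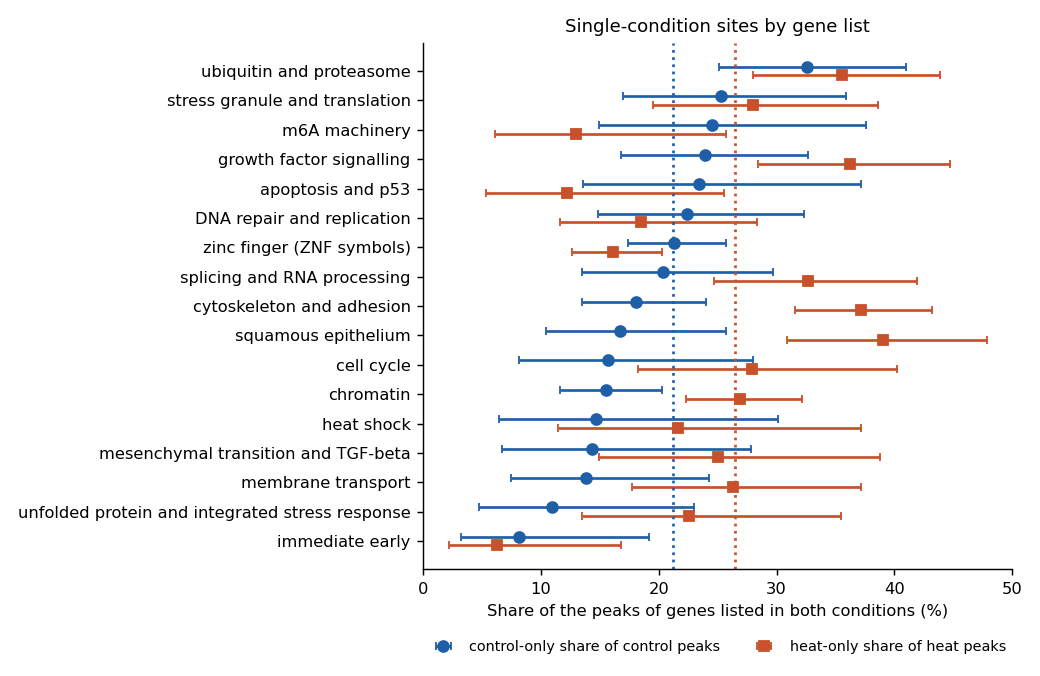
Control-only share of control peaks (blue circles) and heat-only share of heat peaks (orange squares) for 17 gene lists (y axis), in percent of the peaks of listed genes with peaks in both conditions (x axis), with 95% Wilson intervals; dotted lines mark the shares over all genes, 21.2% and 26.5%. The ubiquitin list stands highest on the control side, at 32.6%, and the immediate early list lowest, at 8.16%.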

How the data were processed

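The values are the authors' deposited lists of mRNA peaks, 1 per immunoprecipitated library. Per the submitters' processing notes, reads were handled with cutadapt 1.9.3 and STAR against hg19; peak names carry the name MACS, and how MACS was run is not given here. Per the file headers, the deposited score is 10 times the negative log10 of the p-value (lowest score 50, a p-value of 1e-05), the deposited fold enrichment is a ratio to background, and the deposited FDR is a percent. Input libraries were not analysed here, and total reads, hence depth, are unknown. In the heat list 1 line was emptied for this work, and a few genes that the naming rule takes are not reported here.

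Peaks were compared without strand, 1 shared base counting as overlap (checked with bedtools 2.31.1, which also gave 4062 control peaks without overlap). The overlap step alone was tested on simulated peaks with planted overlaps, and it classed all 14367 simulated peaks correctly. No near miss was simulated, and the match by gene, the order within genes and the distances were not part of that test. Genes were matched by the files' symbols. Gene strand came from RefSeq (GRCh38.p14) by gene identifier or symbol; no coordinate was taken from it. Medians, counts and 95% Wilson intervals were computed (scipy 1.17.1); no test was made.

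The sites and the gene lists were chosen with earlier results of these data known. Named are the 12 highest-scored sites, the 12 genes with the most sites, the 10 highest-scored genes that kept no peak in place, up to 4 genes with and 2 without a site per list, and the 3 nearest, 3 farthest and 3 least overlapping peaks. Alternatives were other overlap rules, score, fold and false discovery rate limits, equal list lengths and other distances. The sequence of the sites and their m6A motifs were not analysed here, since no hg19 sequence was given.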

Additional observations from a re-analysis of the deposited data

How the results depend on the processing

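The count of 2775 control-only sites was 2764 when a heat peak within 100 bases counted as overlap, 2780 when only peaks of the same gene counted and 2876 when 50% of the bases had to be covered, where the share was 22.0%. With control peaks above the median score of 267.01 against the whole heat list, 464 sites were left: a share of 6.75%, 147 genes that kept no peak in place, a median distance of 4712 bases and a difference of 4.02 points between 5′-most and 3′-most peaks. With a fold above 36.5 in both lists the share was 33.8% and the distance 9868 bases, but only 760 of the sites so counted were among the 2775, because peaks under the limit no longer overlap. With a false discovery rate under 100% in both lists there were 1033 sites (17.0%, 118 such genes, 7147 bases, 12.9 points), and with the 7183 top peaks of each list 959 (16.2%, 108, 7106 bases, 12.2 points); 365 and 332 of these were among the 2775. Between peak centres the median distance was 6142 bases. The position difference, an analysis added after the data were seen, was 4.59 points in pairs with scores within 2-fold, 5.32 points with lengths within 2-fold, and reversed to -19.5 points where the 5′-most peak had the higher score. Of 104 named genes, 59 to 104 had a control-only site under each of the 7 other settings of overlap or threshold. A site so counted need not be the one named above. The number of sites stayed within 1.5-fold in 452 of the 728 combinations of named gene and setting. The number of sites and every share thus depend on the listing threshold, and the depth behind it is unknown. The planned comparison of m6A motifs and its version limited by length were not run, since no hg19 sequence was given. No paired analysis was possible because each condition had 1 immunoprecipitated library and no test was made.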
